A study of Mus musculus with 7 samples.

Results

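Elastic fibre proteins and the lysyl oxidases that crosslink them were followed here through 10 genes measured in mouse spleen: the elastin gene Eln, the fibulin genes Fbln5, Fbln1 and Fbln2, the microfibril genes Fbn1, Mfap4 and Mfap5, the elastin-associated gene Emilin1, and the crosslinking enzyme genes Lox and Loxl1. They are 10 of the 22173 genes in the deposited table, were taken by gene symbol, and all 10 were found there. The genes were chosen by family, and the family was selected on the FPKM differences between sHA-X and PBS in these same libraries, so differences of the 10 genes between those groups are given as a description. Fitted changes and adjusted p-values are printed for their size and spread and support nothing further.

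Bulk RNA sequencing covered 7 mouse spleen libraries in 2 groups, PBS (n = 3) and sHA-X (n = 4). Spleens of the sHA-X group had been injected 4 times with sHA-X, a biomaterial intended to remodel the organ into a site for transplanted liver cells, and spleens of the other group received phosphate-buffered saline (PBS). Hepatocytes, the main cells of the liver, were then injected into the spleens of both groups, and RNA was extracted 30 days later. The sources used here give neither the strain, age or sex of the mice nor the source of the hepatocytes, nor do they tie each library to an animal of its own. P-values then reflect library-to-library spread only, which may be technical.

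An elastic fibre has a core of crosslinked elastin inside a scaffold of fibrillin microfibrils. Cells secrete soluble tropoelastin, which short fibulins carry to the microfibrils, and lysyl oxidases then oxidise lysine side chains so that neighbouring molecules, elastin and collagen alike, become joined. In the spleen such fibres lie in the capsule, in the trabeculae and in the walls of arteries. Mature elastin is long-lived, so the level of Eln message bears on new synthesis at the time of sampling and not on the fibre already laid down.

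Values are FPKM, fragments scaled to transcript length and library size, so levels of different genes can be set side by side. Libraries held between 29516830 and 37108844 recovered reads. All 10 genes of the spleen marker list, such as Cd79a and Tlx1, were above 0 FPKM. PBS replicate 2 stood apart with a summed level of 1074 FPKM of pancreatic acinar markers, against 15.4 to 35.2 FPKM in the other libraries. Skeletal muscle markers summed to 224.4 FPKM in sHA-X replicate 2 and to between 8.71 and 17.1 FPKM elsewhere. Hepatocyte markers summed to 825.4 and 847.2 FPKM in replicates 3 and 4 of the sHA-X group and to between 3.94 and 28.5 FPKM in the rest.

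RefSeq (build GRCm38.p6) gave coordinates for all 10 genes. Promoter windows were at hand for only 5 of the 10: Fbn1, Emilin1, Fbln2, Fbln5 and Fbln1. The 250 bases before the outermost start of Fbln5, at chr12:101819120-101819369 on the minus strand, and of Fbln1, at chr15:85205699-85205948 on the plus strand, are shown because these 2 fibulins differed in opposite directions between the groups. Both run 5′ to 3′ on the gene's strand. Capitals mark CAGAC, the letters of the SMAD-binding element through which TGF-beta signalling reaches promoters, or its reverse complement GTCTG.
Fbln5: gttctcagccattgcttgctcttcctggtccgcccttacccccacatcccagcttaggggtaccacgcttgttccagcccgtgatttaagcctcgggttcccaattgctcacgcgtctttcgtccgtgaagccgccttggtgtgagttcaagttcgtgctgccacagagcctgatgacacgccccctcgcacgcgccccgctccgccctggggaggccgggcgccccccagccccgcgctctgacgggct
Fbln1: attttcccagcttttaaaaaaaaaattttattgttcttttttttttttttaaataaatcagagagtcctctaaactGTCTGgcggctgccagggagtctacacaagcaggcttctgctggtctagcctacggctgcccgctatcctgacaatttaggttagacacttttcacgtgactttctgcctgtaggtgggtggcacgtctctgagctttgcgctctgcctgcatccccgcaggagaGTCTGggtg
The Fbln5 window held 0 matches and had 65.2% G and C. The Fbln1 window held 2 matches and had 46.4% G and C. Of all 32851 mouse promoter windows of the same 250 bases, 42.2% held at least 1 match on either strand and 11.7% held 2 or more. Windows at hand for the other genes were placed differently, so their matches are not set against direction. The window of Fbln2 (chr6:91212514-91212763), called higher, held 0 matches. That of Emilin1 (chr5:30913536-30913785), also called higher, held 2. Both lay inside the bounds of the gene. The window of Fbn1, which was not called, overlapped the start of the gene and held 0. RefSeq lists a further start for Fbln5, inside the gene, whose window held 2 matches, so the difference between the fibulins depends on the start chosen. Matches are letters only, and no binding was measured.

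Transcripts of elastin and of fibulin-5 were lower in sHA-X spleens, while those of Fbln1, Fbln2, Mfap4, Emilin1, Lox and Loxl1 were higher. Limma, fitted to log2(FPKM + 1) over all genes with a mean of at least 1 FPKM, tested all 10 members. At a Benjamini-Hochberg adjusted p under 0.05, 6 of the 10 were called higher and 2 lower, and Fbn1 and Mfap5 were not called. Over the 11920 genes tested, 9.30% were called higher and 5.03% lower. In the same 6 genes every sHA-X library lay above every PBS library, as in 17.2% of all tested genes, and in Eln and Fbln5 every sHA-X library lay below every PBS library, as in 11.5%. The median log2 change of the 10 members was 0.59, beside 0.03 over all tested genes.

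**Figure D1:**
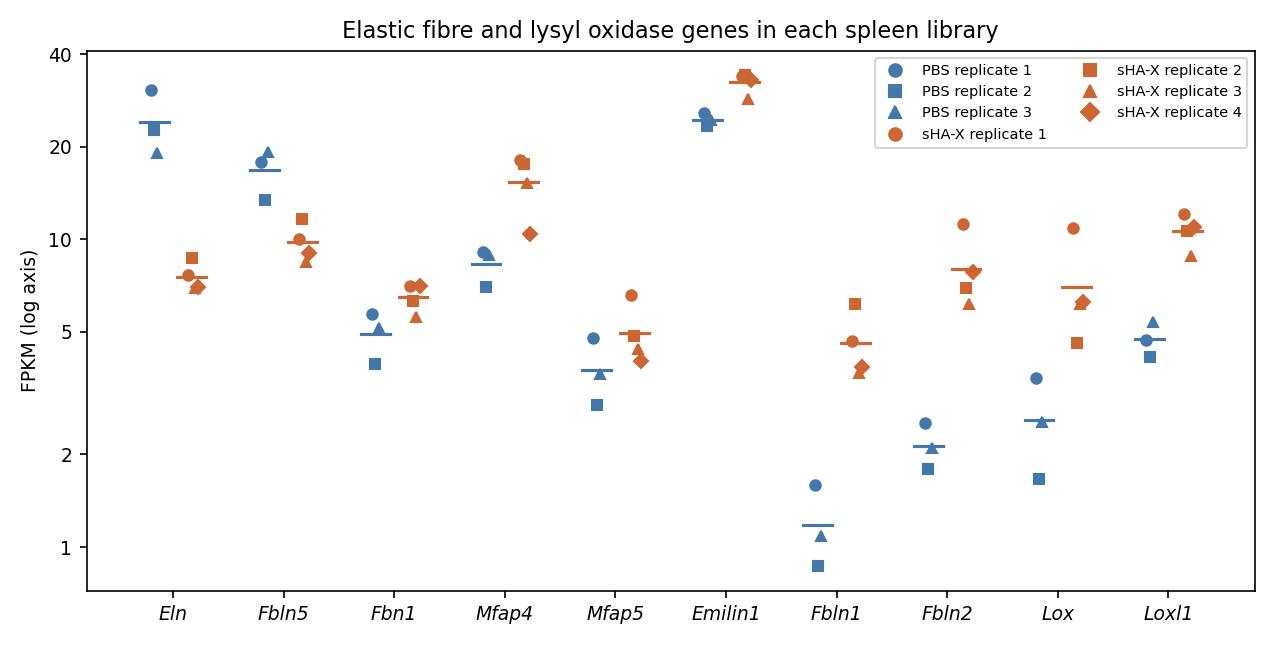
Levels of the 10 genes in FPKM (log axis) in each library, with PBS in blue, sHA-X in orange, 1 marker shape per replicate number and a bar at each group mean. The orange points lie below the blue ones in Eln and Fbln5, overlap them in Fbn1 and Mfap5, and lie above them in the other genes.

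Eln encodes tropoelastin, the subunit of the elastic core, and lies at chr5:134702595-134747368 on the minus strand (NCBI gene 13717). Its level was 30.6, 22.7 and 19.0 FPKM across PBS replicates 1 to 3, against 7.63, 8.69, 6.93 and 6.98 FPKM across sHA-X replicates 1 to 4. The PBS libraries spread widely, yet the lowest of them was above the highest sHA-X library by more than the whole range of the sHA-X group. Mean levels were 24.1 ± 5.92 FPKM (SD, n = 3) in PBS and 7.56 ± 0.82 FPKM (SD, n = 4) in sHA-X, which is 3.19-fold lower. On the log2(FPKM + 1) scale, which understates changes of low genes, the change was -1.53 (SE 0.15, limma adjusted p = 0.0011). Between 921 and 3917 reads lay behind each value. In a whole spleen, fewer cells that make elastin and less Eln RNA in each of them cannot be told apart.

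Fbln5 encodes fibulin-5, a short fibulin that binds tropoelastin, integrins and LOXL1 and without which elastic fibres do not assemble properly. The gene lies at chr12:101746565-101819119 on the minus strand (NCBI gene 23876). Levels were 17.8, 13.4 and 19.2 FPKM in the PBS libraries and 10.05, 11.7, 8.43 and 9.05 FPKM in the sHA-X libraries. Here the gap between the groups was narrow, from 11.7 FPKM in sHA-X replicate 2 to 13.4 FPKM in PBS replicate 2. Mean levels were 16.8 ± 3.00 FPKM in PBS spleens and 9.79 ± 1.41 FPKM in sHA-X (SD, n = 3 and n = 4), a log2 change of -0.72 (SE 0.14, limma adjusted p = 0.013). Without PBS replicate 1 the call was lost (limma adjusted p = 0.064).

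The longer fibulins stood on the other side. Fbln1 (chr15:85205949-85286294, plus strand) encodes fibulin-1, found in basement membranes and around elastic fibres. Its levels were 1.59, 0.867 and 1.08 FPKM in PBS spleens and 4.67, 6.18, 3.67 and 3.84 FPKM in sHA-X, so that the lowest sHA-X library exceeded the highest PBS library more than any PBS libraries differed. The mean was 3.88-fold higher in sHA-X (1.18 ± 0.37 against 4.59 ± 1.15 FPKM), with a log2 change of 1.35 (SE 0.17, limma adjusted p = 0.0025) from 107 to 708 reads per library. Fbln2 (chr6:91212460-91272540, plus strand) encodes fibulin-2, which binds elastin and fibrillin and is found with them in artery walls. It stood at 2.53, 1.79 and 2.09 FPKM in PBS spleens and at 11.2, 6.93, 6.15 and 7.81 FPKM in sHA-X. Means of 2.14 ± 0.37 and 8.03 ± 2.23 FPKM differed 3.76-fold, with a log2 change of 1.502 (SE 0.18, limma adjusted p = 0.0023). In PBS spleens Fbln5 was the most abundant of the 3 fibulins by far. In sHA-X spleens the ranges of Fbln5 and Fbln2 overlapped.

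Among the microfibril genes, Fbn1 and Mfap5 were not separated between the groups. Fbn1 (chr2:125300594-125506485, minus strand) encodes fibrillin-1, the main protein of microfibrils, which also holds latent TGF-beta complexes in the matrix. Levels of 5.72, 3.94 and 5.14 FPKM in PBS spleens and 7.05, 6.29, 5.58 and 7.04 FPKM in sHA-X overlapped, because sHA-X replicate 3 lay below PBS replicate 1. The log2 change was 0.34 (SE 0.12, limma adjusted p = 0.093). Mfap5 (chr6:122513584-122529290, plus strand) encodes a small glycoprotein that decorates microfibrils. Its levels were 4.77, 2.89 and 3.65 FPKM in PBS spleens and 6.62, 4.86, 4.39 and 4.03 FPKM in sHA-X. Again PBS replicate 1 lay inside the sHA-X range, and the log2 change of 0.32 (SE 0.17, limma adjusted p = 0.26) did not pass.

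Mfap4 (chr11:61485431-61488708, plus strand) encodes a protein with a fibrinogen-like domain that sits at microfibrils and elastin. It stood at 9.08, 6.99 and 8.87 FPKM in PBS spleens and at 18.1, 17.6, 15.2 and 10.4 FPKM in sHA-X. The groups were separated, but only narrowly, by sHA-X replicate 4. The change on the log2 scale was 0.79 (SE 0.19, limma adjusted p = 0.036), from means of 8.31 ± 1.15 and 15.3 ± 3.52 FPKM. The call was lost on leaving out any library except sHA-X replicate 4 (limma adjusted p up to 0.11). Emilin1 (chr5:30913387-30921279, plus strand) encodes a glycoprotein at the border of elastin and microfibrils. In both groups it had the highest mean of the 10 genes, with 25.7, 23.3 and 24.4 FPKM in PBS spleens and 33.8, 34.1, 28.5 and 33.0 FPKM in sHA-X. Replicates lay close together, and a 1.32-fold difference (log2 change 0.39, SE 0.075, limma adjusted p = 0.013) separated the groups. With PBS replicate 2 and sHA-X replicate 2 both left out, neither Mfap4 nor Emilin1 passed (limma adjusted p up to 0.18).

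Both crosslinking enzymes were higher. Lox (chr18:52516060-52529867, minus strand) encodes lysyl oxidase, a secreted copper-dependent amine oxidase that acts on collagen and elastin. Its level was 3.55, 1.67 and 2.54 FPKM in PBS spleens and 10.9, 4.60, 6.17 and 6.24 FPKM in sHA-X. Replicates spread widely, with sHA-X replicate 1 well above the other sHA-X libraries and PBS replicate 2 lowest of all. Means of 2.59 ± 0.94 and 6.98 ± 2.73 FPKM differed 2.70-fold, with a log2 change of 1.13 (SE 0.29) that only just passed (limma adjusted p = 0.048). It no longer did without any 1 of PBS replicates 1, 2 and 3 or sHA-X replicates 3 and 4 (limma adjusted p up to 0.13).

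Loxl1 (chr9:58287723-58313212, minus strand) encodes lysyl oxidase-like 1, which fibulin-5 tethers at sites of elastin assembly. Levels were 4.69, 4.14 and 5.39 FPKM in PBS spleens and 12.1, 10.7, 8.84 and 11.0 FPKM in sHA-X. Every sHA-X library was well clear of the PBS range. Means of 4.74 ± 0.63 and 10.6 ± 1.36 FPKM differed 2.25-fold, and the log2 change was 1.02 (SE 0.11, limma adjusted p = 0.0013). Eln, Fbln1, Fbln2 and Loxl1 were the members that kept their call in every alternative run that tested them.

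**Figure D2:**
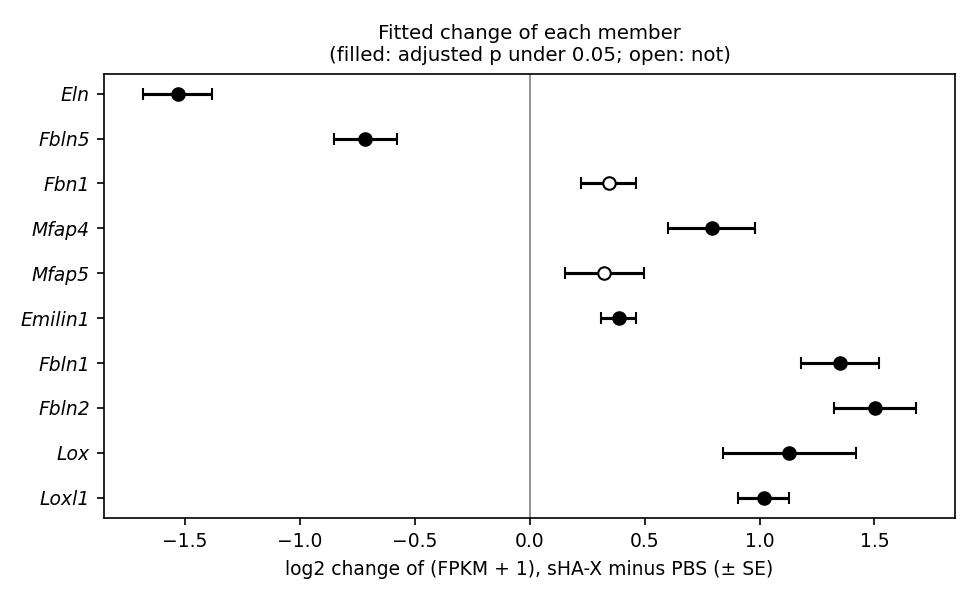
Fitted log2 change of each gene, sHA-X minus PBS, on the log2(FPKM + 1) scale, with bars of 1 SE on either side. Eln at -1.53 and Fbln5 at -0.72 lie left of 0, and Fbn1 and Mfap5 are open because their adjusted p was not under 0.05.

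Substrate and enzyme messages differed in opposite directions, so their ratio within a library differed more than either level. Eln FPKM was 6.53, 5.48 and 3.53 times Loxl1 FPKM across PBS replicates 1 to 3 and 0.630, 0.815, 0.784 and 0.636 times across sHA-X replicates 1 to 4. On the FPKM scale Eln thus exceeded Loxl1 in every PBS library and was below it in every sHA-X library. Relative to Lox the ratios were 8.62, 13.6 and 7.49 in PBS libraries, against 0.699, 1.89, 1.12 and 1.12 in sHA-X libraries. Against Emilin1 they were 1.19, 0.975 and 0.779 in PBS libraries and between 0.211 and 0.255 in sHA-X.

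The ratio of Eln to Fbln5, the pair that was lower together, was 1.72, 1.69 and 0.995 in PBS libraries and between 0.746 and 0.822 in sHA-X. In this ratio PBS replicate 3 stood nearer to the sHA-X libraries than to the other PBS libraries. Eln made up 28.9%, 27.8% and 20.8% of the summed FPKM of the 10 genes in the PBS libraries and between 6.24% and 7.78% in the sHA-X libraries. The sum itself overlapped, at 81.7 to 106.1 FPKM in PBS spleens and 93.9 to 122.2 FPKM in sHA-X. Without Eln and Fbln5 it did not, at 45.6 to 57.7 and 78.6 to 104.5 FPKM.

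**Figure D3:**
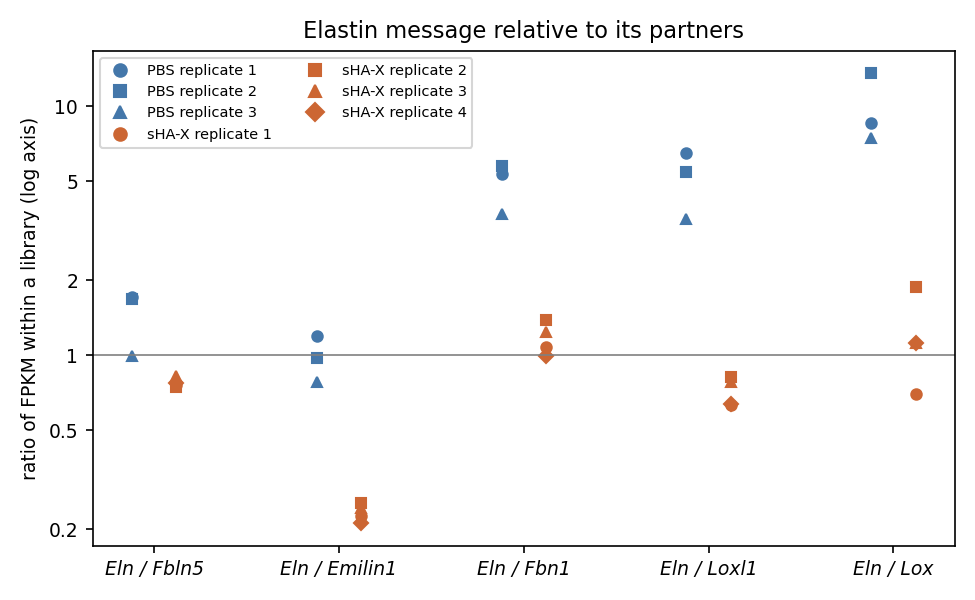
Ratio of Eln FPKM to the FPKM of Fbln5, Emilin1, Fbn1, Loxl1 and Lox within each library (log axis, line at 1), PBS in blue and sHA-X in orange. The Eln to Loxl1 ratio lies above 1 in all 3 PBS libraries and below 1 in all 4 sHA-X libraries.

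The order of the members by mean level also differed. In PBS it ran Emilin1, Eln, Fbln5, Mfap4, Fbn1, Loxl1, Mfap5, Lox, Fbln2 and Fbln1, and neighbours had separate ranges only between Fbln5 and Mfap4, Mfap4 and Fbn1, and Fbln2 and Fbln1. In sHA-X it ran Emilin1, Mfap4, Loxl1, Fbln5, Fbln2, Eln, Lox, Fbn1, Mfap5 and Fbln1, and among neighbours only Emilin1 and Mfap4 had separate ranges. Eln was in place 2 in PBS and in place 6 in sHA-X.

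Libraries differed across members as well as groups. PBS replicate 2 was the lowest PBS library in 9 of the 10 genes, all but Eln, and it is the library with the high pancreatic acinar markers. PBS replicate 1 was the highest PBS library in 8 genes. Of the sHA-X libraries, replicate 1 was the highest in 6 genes and replicate 2 in 4. Replicate 3 was the lowest in 7 and replicate 4 in 2. Replicates 3 and 4, highest in 0 genes, are the libraries with the high hepatocyte markers. The part of the other tissue and of hepatocyte RNA in these differences was not tested. With both replicates 2 left out, every member kept the direction of its change, but Mfap4, Emilin1 and Lox lost their calls.

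Other genes of the pathway were read from the same fit. Across 4 lists that leave the members out, 64 distinct genes were listed and 53 were tested. Of these 22 were called higher, 0 lower and 31 neither, and 11 were under the level filter. At an unadjusted p under 0.05 by limma, 28 of the 53 were higher and 3 lower. Among elastic fibre partners, which are microfibril, fibulin-like, latent TGF-beta binding and copper-handling genes, 3 of 18 tested were called higher and 0 lower, with a median log2 change of 0.30 (7 higher and 2 lower at an unadjusted p under 0.05 by limma). Tnxb, encoding the matrix glycoprotein tenascin-X, rose from 7.65 ± 0.70 to 11.2 ± 1.31 FPKM (limma adjusted p = 0.014). The lysyl oxidase family genes Loxl2 (1.83 ± 0.12 to 2.93 ± 0.48 FPKM, limma adjusted p = 0.023) and Loxl3 (1.81 ± 0.36 to 2.58 ± 0.14 FPKM, limma adjusted p = 0.046) rose too. Both calls depended on single libraries, Loxl2 losing its call without any 1 of PBS replicates 1 and 2 and sHA-X replicates 1 and 4, and Loxl3 without any 1 except PBS replicate 1 (limma adjusted p up to 0.070 and 0.12).

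Partners that deliver elastin to microfibrils did not pass. Efemp2, encoding fibulin-4, which brings LOX to tropoelastin, was at 4.68 ± 0.63 FPKM in PBS spleens and 6.24 ± 1.04 FPKM in sHA-X (limma adjusted p = 0.093). Ltbp4, a binding protein of latent TGF-beta that also guides fibulin-5, was at 15.4 ± 3.39 and 22.0 ± 3.11 FPKM (limma adjusted p = 0.083, or 0.040 without PBS replicate 3). Fn1, encoding fibronectin, the most abundant of the partners, was at 24.2 ± 3.07 and 30.8 ± 4.45 FPKM (limma adjusted p = 0.11). Fbn2, the fibrillin of developing tissue, was under the filter at 0.1203 ± 0.058 and 0.125 ± 0.051 FPKM. Vcan and Fbln7, chosen after their values were seen, were under the filter as well. Vcan, encoding the proteoglycan versican, had 0.277 ± 0.035 FPKM in PBS spleens and 1.46 ± 0.27 FPKM in sHA-X, and Fbln7 had 0.141 ± 0.104 and 1.02 ± 0.44 FPKM. In the fit without a filter both were called higher (limma adjusted p = 0.0033 and 0.025).

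A further list covered processing and copper loading of lysyl oxidases and also held the procollagen enhancers Pcolce and Pcolce2. Of its 6 tested genes, 4 were called higher, these enhancers among them, and 0 lower (median log2 change 0.46). Bmp1, encoding the protease that cuts the propeptide from lysyl oxidase, rose from 6.34 ± 0.40 to 9.98 ± 1.15 FPKM (limma adjusted p = 0.0052). Pcolce, encoding an enhancer of BMP1 acting on procollagen, rose from 26.7 ± 3.14 to 43.1 ± 5.17 FPKM (limma adjusted p = 0.0055). Its relative Pcolce2 rose from 4.61 ± 0.33 to 6.16 ± 0.66 FPKM, and Postn, whose product periostin assists BMP1, from 8.29 ± 1.11 to 13.7 ± 2.54 FPKM (limma adjusted p = 0.038 and 0.018). Leaving out any 1 of 5 libraries ended the call of Pcolce2, all but PBS replicate 3 and sHA-X replicate 2, and leaving out PBS replicate 1 or 2 ended that of Postn (limma adjusted p up to 0.13 and 0.054). Atox1, a copper chaperone, was at 123.9 ± 17.4 and 134.1 ± 10.5 FPKM and did not pass (limma adjusted p = 0.48).

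Enzymes that can cut elastin and their inhibitors were mostly higher. Of 16 tested, 10 were called higher and 0 lower, with a median log2 change of 0.60. The cysteine cathepsins Ctsk (4.65 ± 0.72 to 15.3 ± 3.72 FPKM), Ctsb (632.3 ± 34.4 to 1043 ± 17.6 FPKM), Ctsl (30.8 ± 3.95 to 42.5 ± 1.42 FPKM) and Ctss (417.7 ± 43.6 to 558.4 ± 26.5 FPKM) rose, with limma adjusted p of 0.0034, 0.00042, 0.010 and 0.011. The call of Ctss was lost without PBS replicate 1 (limma adjusted p = 0.053). The gelatinases Mmp2 (6.64 ± 1.13 to 18.3 ± 4.14 FPKM) and Mmp9 (9.11 ± 1.96 to 15.0 ± 0.90 FPKM) rose as well (limma adjusted p = 0.0036 and 0.011). On the inhibitor side Slpi, which blocks neutrophil elastase, rose from 65.96 ± 13.9 to 299.6 ± 73.3 FPKM (limma adjusted p = 0.0024) and Timp2, an inhibitor of metalloproteinases, from 63.9 ± 9.75 to 90.7 ± 7.72 FPKM (limma adjusted p = 0.021). The Timp2 call was lost without any 1 of PBS replicate 1 and sHA-X replicates 1, 2 and 4 (limma adjusted p up to 0.060). The other genes of the list that passed were Ctsg and Timp1. Cst3, encoding the cathepsin inhibitor cystatin C, was at 673.0 ± 64.8 and 638.4 ± 27.9 FPKM (limma adjusted p = 0.58).

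Of the elastin-cutting enzymes, Mmp12, Elane and Prtn3 did not pass. Mmp12, the macrophage elastase gene, was at 1.78 FPKM in PBS spleens and 2.07 FPKM in sHA-X on average (limma adjusted p = 0.51). Neutrophil elastase, Elane, had means of 31.2 and 43.2 FPKM (limma adjusted p = 0.27) and proteinase 3, Prtn3, of 25.5 and 50.7 FPKM (limma adjusted p = 0.064). Ctsg, encoding cathepsin G, did pass, with means of 10.7 FPKM in PBS spleens and 23.8 FPKM in sHA-X (limma adjusted p = 0.022). All of these were named after their values were seen. Of 10 macrophage markers 7 were called higher and 0 lower, and their summed level was 2991 to 3642 FPKM in PBS spleens and 3840 to 4060 FPKM in sHA-X. Lyz2 carried most of this sum and was not called, at 2248 ± 210 and 2174 ± 163 FPKM (limma adjusted p = 0.77). The median log2 change of the list was 0.67. Several cathepsins are abundant in macrophages, and the part of macrophage number in their levels was not tested.

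TGF-beta raises transcription of elastin, lysyl oxidases and fibrillar collagens in many mesenchymal cells, and the study's title names its release. Of 15 tested ligands and response genes 6 were called higher and 0 lower (median log2 change 0.29), and at an unadjusted p under 0.05 by limma 7 were higher and 1 lower. Tgfb3 rose from 2.13 ± 0.25 to 3.99 ± 0.13 FPKM (limma adjusted p = 0.0015), while Tgfb1, by far the most abundant ligand message, was at 94.1 ± 5.31 and 87.8 ± 8.07 FPKM (limma adjusted p = 0.45). Col1a1, a collagen I chain, rose from 19.0 ± 2.38 to 57.3 ± 19.9 FPKM, and Tgfbi, encoding a secreted adhesion protein, from 55.8 ± 8.70 to 82.0 ± 7.99 FPKM (limma adjusted p = 0.016 for each). Cilp, encoding a matrix protein of cartilage and fibrotic tissue, rose from 4.09 ± 0.98 to 8.498 ± 2.42 FPKM (limma adjusted p = 0.048). Of these calls, that of Tgfb3 held without each library in turn. Col1a1 lost its call without PBS replicate 1 or 2, Tgfbi without PBS replicate 1, and Cilp without any 1 of PBS replicates 1 and 2 and sHA-X replicates 1, 2 and 4 (limma adjusted p up to 0.058, 0.071 and 0.14). The gene lower at the unadjusted threshold was Smad7, named after its values were seen, at 9.90 ± 0.57 and 8.15 ± 0.62 FPKM (limma adjusted p = 0.054). Of the 15 tested, 9 were not called, Smad3, Skil and Ccn2 among them. Col1a1 is also on the list of fibroblast markers, and Postn is also on the list for lysyl oxidase processing. Eln was lower in libraries in which some genes of this list were higher and most were not called. Neither the activity of TGF-beta nor its part in the level of Eln was tested.

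**Figure D4:**
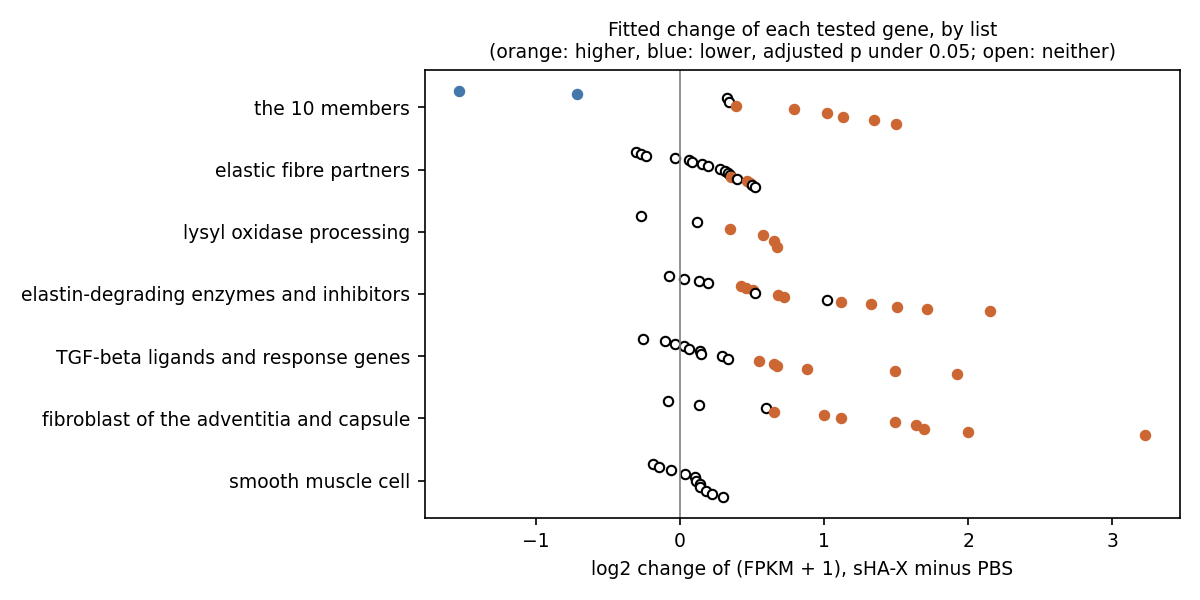
Fitted log2 change of every tested gene, sHA-X minus PBS, on the log2(FPKM + 1) scale, in 1 row for the 10 members and 1 for each of 6 gene lists, orange for genes called higher, blue for genes called lower and open for neither. Blue points appear only in the members' row, for Eln and Fbln5, and the smooth muscle row holds 0 called genes of 11.

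Cells known to make these proteins were followed by their markers, without the members. Of 11 tested smooth muscle markers 0 were called at an adjusted p under 0.05 by limma (2 higher and 0 lower at an unadjusted p under 0.05), and their summed level was 177.0 to 211.9 FPKM in PBS spleens and 208.3 to 229.8 FPKM in sHA-X. Tagln and Acta2 carried most of this sum, and the part of smooth muscle cell number in the level of Eln was not tested. Markers of pericytes, cells that wrap small vessels, summed to 35.2 to 43.4 FPKM in PBS spleens and 42.2 to 48.2 FPKM in sHA-X, with 2 of 6 called higher. General endothelial markers, with 0 of 10 called by limma (2 higher at an unadjusted p under 0.05), summed to 133.6 to 179.5 and 153.7 to 169.4 FPKM. Arterial endothelial markers summed to 41.1 to 50.3 and 58.0 to 62.0 FPKM, with Cldn5 and Sema3g called higher and Efnb2 lower of 7 tested. Cldn5 carried most of this sum, with means of 28.7 FPKM in PBS spleens and 41.1 FPKM in sHA-X. The median log2 change of the list was -0.064.

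Markers of fibroblasts of the adventitia and capsule moved with the members that were higher. Leaving out Mfap5 and Fbln1, which are on that list, 8 of 11 were called higher and 0 lower by limma (9 and 0 at an unadjusted p under 0.05), and the summed level was 216.9 to 293.2 FPKM in PBS spleens and 449.4 to 665.0 FPKM in sHA-X, 2.03-fold higher on average. The median log2 change of the list was 1.12. Markers of splenic reticular fibroblasts summed to 534.5 to 676.9 FPKM in PBS spleens and 450.6 to 653.2 FPKM in sHA-X, with 2 of 11 called higher and 1 lower. Mesothelial markers, which label the lining of the capsule, summed to 8.96 to 18.8 FPKM in PBS spleens and to 1.82, 33.0, 8.64 and 5.19 FPKM in the sHA-X libraries, and adipocyte markers reached 101.1 FPKM in sHA-X replicate 2 against 7.79 to 39.1 FPKM elsewhere. Each of the markers found in the table was above 0 in at least 1 library. The part of fibroblast number in the members' levels was not tested.

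**Figure D5:**
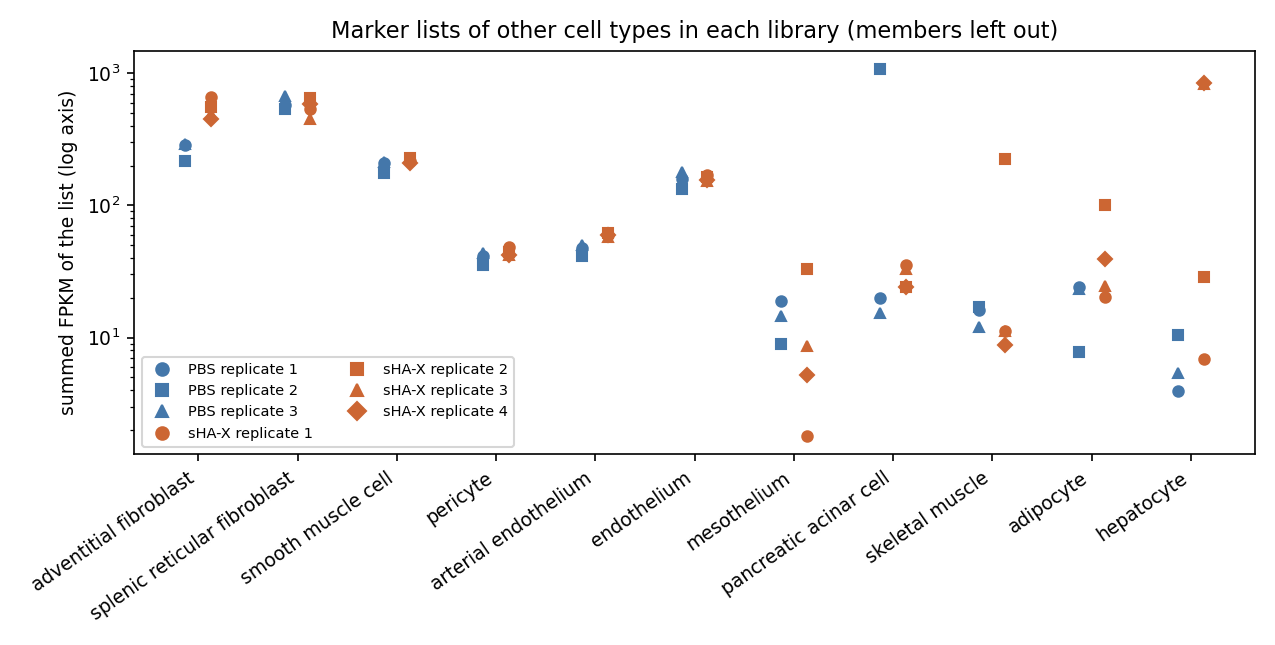
Summed FPKM of the marker genes of 11 cell types in each library (log axis), members left out, PBS in blue and sHA-X in orange. Adventitial fibroblast and arterial endothelial sums are separate between the groups, and smooth muscle and general endothelial sums overlap. The high pancreatic, skeletal muscle and hepatocyte sums each sit in 1 or 2 libraries.

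The genes most like Eln across the 7 libraries were found by the root mean square distance between profiles of log2(FPKM + 1), each centred on its own mean. The nearest 5 were Niban3 (distance 0.21), Ear1 (0.23), Aplnr (0.23), Atp1b1 (0.28) and Siglech (0.28). Niban3, expressed in B cells, was at 18.0 ± 0.24 FPKM in PBS spleens and 5.58 ± 0.49 FPKM in sHA-X. Aplnr, the apelin receptor of endothelial cells, was at 3.86 ± 0.59 and 1.14 ± 0.17 FPKM, and Siglech, a lectin of plasmacytoid dendritic cells, at 20.8 ± 1.95 and 8.34 ± 1.05 FPKM. None of the 5 belongs to the elastic fibre lists, and no gene came as close to Eln as the 5 nearest came to Loxl1. Those were Sparcl1 (0.064), Plat (0.074), Lrp1 (0.075), Smoc2 (0.095) and Fcgr3 (0.096). Sparcl1 and Smoc2 encode matrix-associated proteins of the SPARC family and were at 26.9 ± 3.70 and 68.6 ± 4.95 FPKM in PBS spleens and at 54.4 ± 5.88 and 130.5 ± 9.65 FPKM in sHA-X. Likeness of this kind is set largely by the difference between the groups and is a description of 7 libraries.

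Overlapping transcription could touch 4 of the 10 genes. Eln, Fbn1 and Lox overlap Gm30003, Gm9913 and AC161119.1 on the opposite strand, and Mfap4 overlaps Mapk7. The sources used here do not say whether the library kit kept the strand, and without it reads of such pairs cannot be told apart.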

How the data were processed

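RNA sequencing covered 3 PBS and 4 sHA-X spleen libraries, grouped by their labelled treatment. Per the labels' protocols, RNA was taken with TRIzol and libraries were made with the VAHTS Universal V6 kit. The submitters' processing notes list the build mm10, R 3.2.0, DESeq2, HTSeq, HISAT2 and fastp, with no roles. The deposited table names no unit. Its values were read as FPKM that the authors computed, which is an inference. Within each gene they could be fitted as whole multiples of a fixed step (tolerance 0.05 of a read, in 16889 of the 16889 genes above 0 in at least 2 libraries). The search for a step was wide, and such steps would also arise without scaling to length, so this does not give the unit. Lengths implied by the recovered reads ran from 1513 bases for Mfap5 to 10177 for Fbn1, beside 3589 and 12128 bases of annotated exon. They were 3994 bases for Eln and 3355 for Loxl1, beside 8098 and 3297, so ratios between genes depend on the lengths used. The recovered reads served for depth and these lengths only.

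Values as log2(FPKM + 1) were fitted with limma 3.58.1 (trend and robust variance, R 4.3.3) on group alone, for 11920 genes with a mean of at least 1 FPKM (10253 were left out), with Benjamini-Hochberg adjustment over all of them and a call at adjusted p under 0.05. In simulated data with 200 changed genes of those 11920, the fit made 195 calls, 6 of them false. It found 91% of the genes changed 2-fold and 98% of those changed 4-fold, both as fold changes of FPKM + 1. The same fold change of FPKM is a smaller change on this scale in a low gene, so recovery of low genes may be less. Noise was drawn independently for each value, without RNA of other tissues in single libraries.

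The members and gene lists were chosen with earlier results of these data known. Named genes were the members, every called gene of the 4 pathway lists (the 8 with the smallest p where more passed), the most abundant uncalled gene of each, and Tgfb1, Fbn2, Ltbp4, Efemp2 and Loxl2 whatever their values. A gene that this rule names is not reported here. Alternatives were another pseudocount, other filters and scalings, no trend or robust variance, left-out libraries and the replicate number as a block. Coordinates are RefSeq's for GRCm38.p6 (mm10), matched by NCBI gene identifier. Protein sequences were not used here.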

Additional observations from a re-analysis of the deposited data

Results flagged for a closer look

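None of the 10 members was flagged. Of 37 genes whose 4 sHA-X values were examined for a library far from the other sHA-X libraries (Dixon's gap test), 5 were flagged, and chance flags about 5% of such groups. Loxl3 was at 2.79 FPKM in sHA-X replicate 2, above the others. Pcolce2 was at 5.17 FPKM in the same library, below the others. Ctss reached 598.0 FPKM in sHA-X replicate 4 and Efemp2 reached 7.78 FPKM in sHA-X replicate 1, both above the rest. Timp2 was at 79.2 FPKM in sHA-X replicate 3, below the rest.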

How the results depend on the processing

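Over 15 alternatives, 148 fits of single members gave 129 with the same direction and side of the threshold, 19 that lost the call and 0 that reversed. The members that lost a call in some alternative were Fbln5, Mfap4, Emilin1 and Lox. Lox lost its call with no filter (adjusted p = 0.052) and scaled by the median of ratios (0.051). Leaving out 1 library at a time gave 488 to 1263 genes higher and 228 to 637 lower over all genes, 4 to 5 members higher and 1 to 2 lower, and 13 to 25 pathway genes higher and 0 to 1 lower, with the fewest over all genes without PBS replicate 1. With PBS replicate 2 and sHA-X replicate 2 both left out, 492 genes were higher and 330 lower, 3 members higher, and 1 pathway gene (Adamtsl2) lower. Scaling by the median of ratios called 2 pathway genes lower, Adamts10 and Smad7. Cst3 changed by -0.12 to 0.0039 on the log2 scale without 1 library, reversing without PBS replicate 3. The causes were not tested.

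With the replicate block 276 genes were higher and 72 lower, with 5 members higher, 1 lower (Eln) and 10 pathway genes higher. Deviations of same-numbered libraries correlated at 0.150, -0.214 and -0.286, so the numbers were not taken to pair the libraries, and of sHA-X replicates 1 to 3 only replicate 1 correlated best with its own number. Each member value rests on at least 107 reads. The number of libraries is small, and pathway genes under 1 FPKM were left untested.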
